A study of Mus musculus with 4 samples.

Results

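The genes described here encode the semaphorin, ephrin, Slit and netrin guidance cues and their receptors, in mouse embryonic fibroblasts with and without focal adhesion kinase (FAK). Members were taken by symbol from the platform annotation: semaphorins of classes 3 to 7, plexins, neuropilins, ephrins, Eph receptors, Slits, Robos, netrins and Unc5 receptors. That gave 68 genes of the 18194 that had a probe set of their own, and 1 of the 68, Plxna4os1, is an antisense RNA named after a plexin. Each gene is represented by its brightest probe set. Of the 68 genes, 49 had a value above the median of all values (log2 8.90) in at least 1 array and entered the test, among 12290 genes that did. The 19 not tested were Epha3, Epha6, Epha7, Epha8, Ephb1, Ntn1, Ntn3, Plxna4os1, Plxnc1, Robo1, Robo2, Robo3, Robo4, Sema3g, Sema5b, Sema6b, Slit1, Unc5a and Unc5d, with highest values from 6.01 to 8.83.

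There were 4 groups with 1 Affymetrix mouse expression array each: FAK-/- (knockout) and FAK+/+ (wild-type) cells kept without treatment, and FAK-/- and FAK+/+ cells treated with endothelin-1 (ET-1), a peptide ligand of G protein-coupled receptors, for 24 h. Cells of every group were at passage 5 and had been starved of serum for 24 h before that. The labels do not say how many embryos or cultures lie behind each genotype, so a difference between genotypes cannot be told apart from one between cell lines. With bulk RNA, fewer cells of a type and less RNA per cell cannot be told apart either.

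Guidance cues are secreted or membrane-bound proteins that attract or repel growing axons and migrating cells, and mesenchymal cells use them too. Class 3 semaphorins are secreted and bind neuropilins, which form receptors together with A-type plexins. The other vertebrate semaphorins are mostly membrane-anchored and bind plexins directly. Ephrins are membrane-bound ligands of the Eph receptor tyrosine kinases, Slits are secreted ligands of Robo receptors, and netrins bind Dcc, neogenin and Unc5 receptors. All of these receptors act on the cytoskeleton and on adhesion, where FAK also acts as a kinase downstream of integrins.

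In the knockout 14 of the 49 guidance genes tested rose and 4 fell, by limma with an adjusted p under 0.05 over all genes tested. The 4 that fell were Slit2, Sema5a, Sema3a and Nrp1, and their differences ran from -4.49 to -1.98 on the log2 scale. The 14 that rose ran from 0.62 for Sema3b to 3.62 for Sema3d, and included the ligands Sema4c, Sema6d, Sema4a, Sema3c, Efna5, Efna2, Efnb1 and Slit3 and the receptors Epha4, Ephb6, Plxnb3 and Plxna4. The shares were 28.6% higher and 8.16% lower, against a background of 6.60% higher and 7.05% lower among all 12290 genes. The median difference of the 49 genes was 0.08 untreated and 0.20 with ET-1, and over all genes tested it was 0.02 and -0.03. Over all 68 members these medians were 0.04 and 0.07. At an unadjusted p under 0.05 the limma count was 24 of 49 (background 29.9%).

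The test was an additive model of genotype and treatment fitted to all 4 arrays. The only degree of freedom left over is the interaction. eBayes pools it with an intensity trend over all genes, which counts as 2.996 prior degrees of freedom. The standard errors (SE) and p-values thus set a difference against that pooled value and not against a spread between cultures. Of the 18 genes called, 4 passed the level filter through 1 genotype alone, which favours a difference. These were Sema3d, Plxnb3 and Ephb6, whose wild-type values all lay at or below log2 8.90, and Sema5a, whose knockout values did. In all, 8 of the 49 genes tested passed in this way, and Sema4g and Epha1 among them were not called. Without the level filter 11 of all 68 members rose and 6 fell, against a background of 3.95% and 4.28%.

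**Figure D1:**
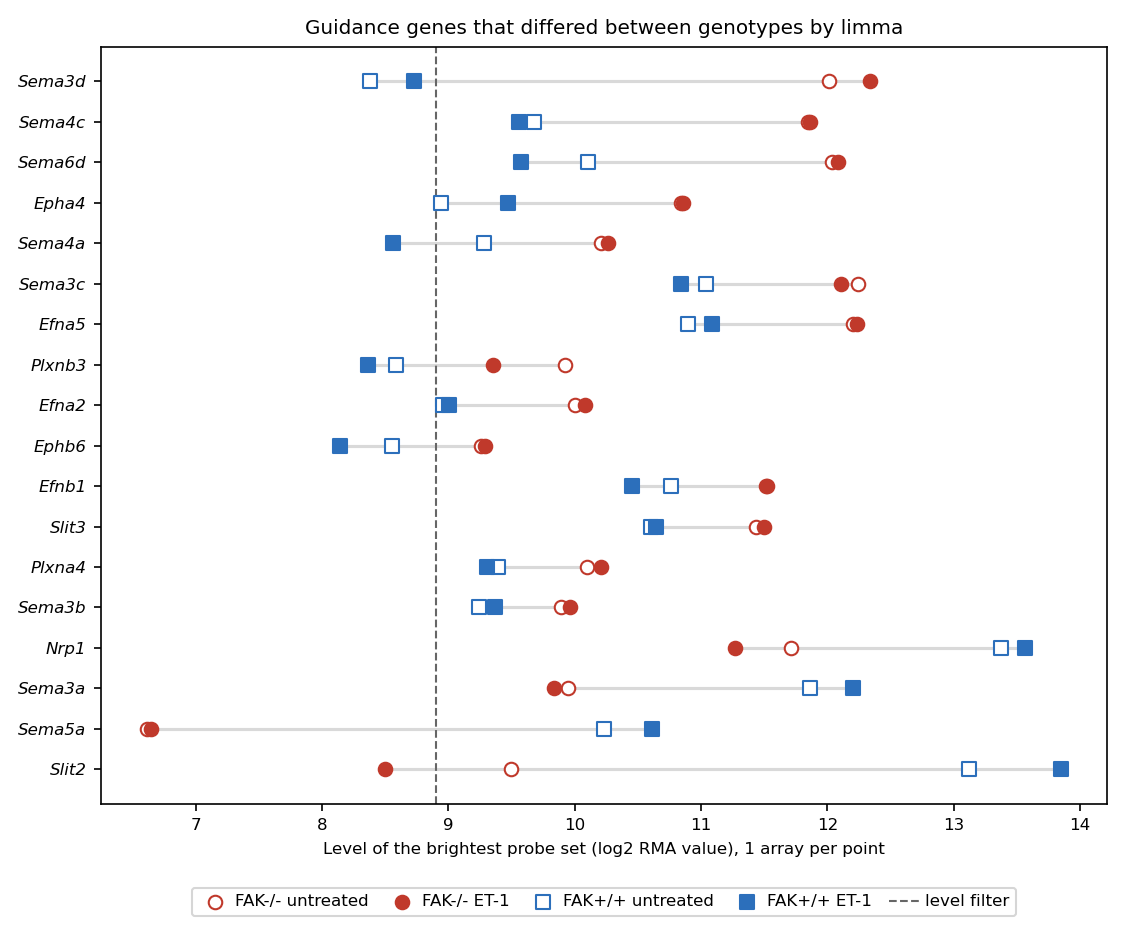
Level (log2 RMA value) of each of the 18 guidance genes called for genotype, 1 point per array; circles are FAK-/- arrays, squares FAK+/+ arrays, filled symbols ET-1 and the dashed line the level filter at 8.90. In each of these genes both knockout arrays lie on one side of both wild-type arrays, which selection by the limma call favours. Among all 12290 genes tested this held for 30.0% upward and 29.3% downward. The genes run from Sema3d at the top (3.62 higher) to Slit2 at the bottom (lower by a log2 difference of -4.49).

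The ET-1-treated wild-type array stood apart in its 3' to 5' control gap, and whether RNA quality lay behind this was not tested. For Gapdh the log2 gap between the 3' and 5' control probe sets was 3.79 there, against 0.85 to 0.90 in the other 3 arrays. Actb set it apart less, with gaps of 1.27 and 1.30 in knockout cells and 1.81 with ET-1 and 0.66 without it in wild type. That array enters each wild-type value and each genotype difference after ET-1, and every limma value. In the untreated pair of arrays alone, which does not use it, 8 tested guidance genes reached 2-fold upward in the knockout and 4 downward (background 4.78% and 4.59%). Over all 68 members 7 were 2-fold higher in both pairs and 5 lower, the fifth being Epha3, which is dim (background 2.41% and 2.81%). At 1.5-fold 15 of the 49 tested genes were higher in both pairs and 4 lower (background 7.32% and 7.46%). Markers of other cells also moved with genotype, and their counts stand against the 6.60% higher and 7.05% lower of all genes. Of 8 mesothelial markers 5 rose and 1 fell in the knockout, with a median difference of 2.59 untreated and 4.28 after ET-1, and a median level of 13.45 and 13.20 in the knockout, against 11.39 and 8.67 in wild type. Of 13 fibroblast markers tested 9 fell and 1 rose; Thy1 was among those lower (-5.34), and so was Vim (-0.59), which still read 14.16 or more in all 4 arrays, whereas Col3a1 differed by 0.02. Of 10 endothelial markers 7 read below the level filter in every array, Pecam1, Cdh5, Tie1 and Vwf among them, whereas Kdr (10.14 to 10.63), Esam (10.05 to 10.13) and Erg (9.15 to 9.28) read above it. Of the other marker lists tested, 4 of 9 epithelial genes rose and 1 fell, 2 of 3 Schwann and neural crest genes rose, 1 of 3 macrophage genes rose, 1 of 3 neuronal genes fell and 0 of 3 endothelial genes were called. Of these calls 2 among the mesothelial, 2 among the epithelial, 1 among the Schwann and neural crest and 1 among the neuronal markers are of genes that passed the filter through 1 genotype alone. The part of these marker differences in the guidance results was not tested.

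The secreted class 3 semaphorins went in opposite directions. Of 6 tested, 3 rose, 1 fell and 2 were not called (background 6.60% higher and 7.05% lower). Sema3d, a repellent cue best known from heart and vessel development, read 12.01 untreated and 12.33 after ET-1 in the knockout, against 8.38 and 8.73 in wild type. Both knockout arrays were high and both wild-type arrays lay below the level filter, so the size is uncertain. Its knockout level was 12.4-fold higher untreated and 12.2-fold higher after ET-1, a limma difference of 3.62 ± 0.11 (SE, adjusted p = 0.00556). Its other probe set, below the level filter, differed by 0.39 untreated and 0.91 after ET-1. Sema3a, the repellent of sensory axons for which the class is best known, read 9.95 and 9.84 in the knockout, against 11.86 and 12.20 in wild type. It was lower in the knockout by 3.77-fold without ET-1 and by 5.14-fold with it (limma -2.14 ± 0.17 SE, adjusted p = 0.00855).

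Sema3c, a cue of cardiac outflow tract and neural crest, read 12.24 untreated and 12.10 after ET-1 in the knockout, against 11.04 and 10.84 in wild type. It was 2.30-fold and 2.40-fold higher in the knockout (limma 1.23 ± 0.16 SE, adjusted p = 0.0197). Sema3b, which was first described as a candidate tumour suppressor in lung, had the smallest called difference, with 9.89 and 9.96 in the knockout, against 9.24 and 9.37 in wild type (limma 0.62 ± 0.09 SE, adjusted p = 0.0271). Its second probe set, also above the level filter, differed by 0.01 untreated and 0.07 after ET-1, and the third, below it, by 0.37 and -0.27. The call was lost when the probe sets of Sema3b were averaged (0.24, limma adjusted p = 0.210) and in eBayes without trend (adjusted p = 0.0534). Sema3e, which can bind plexin D1 without a neuropilin, differed by 0.06 and was not called. Sema3f, the main neuropilin-2 ligand, read 13.57 in both knockout arrays, against 13.80 and 13.07 in wild type, and was not called by its brightest probe set (limma 0.13 ± 0.22 SE, adjusted p = 0.757). Its other probe sets were 0.48 and 1.63 higher in the knockout untreated and 0.60 and 1.90 higher after ET-1, and when all its probe sets were averaged it was called. The brightest Sema3f probe set carries the suffix that Affymetrix gives to sets with probes that may match other transcripts.

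Sema3d and Sema3a are neighbours on chromosome 5 with 0 protein-coding genes between them in the RefSeq order, and Sema3e follows after 3 and Sema3c after another 15. Along this stretch the log2 differences in untreated cells were 3.63 for Sema3d, -1.91 for Sema3a, 0.22 for Sema3e and 1.20 for Sema3c.

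RefSeq promoter windows (build GRCm38.p6, 250 bases before to 50 after the annotated start) are shown for that neighbouring pair and for the Slit pair described next, because within each pair 1 gene rose and the other fell. All 4 windows lie on the + strand, at chr5:12382916-12383215, chr5:13396534-13396833, chr11:35121206-35121505 and chr5:47982905-47983204. Capitals mark matches to 5 motifs, searched on both strands with overlapping matches counted. The TATA box was searched as TATAAA. The CCAAT box was searched by that name. The GC box was searched as GGGCGG. The AP-1 site was searched as TGANTCA. The TEAD site was searched as GGAATG.
Sema3d: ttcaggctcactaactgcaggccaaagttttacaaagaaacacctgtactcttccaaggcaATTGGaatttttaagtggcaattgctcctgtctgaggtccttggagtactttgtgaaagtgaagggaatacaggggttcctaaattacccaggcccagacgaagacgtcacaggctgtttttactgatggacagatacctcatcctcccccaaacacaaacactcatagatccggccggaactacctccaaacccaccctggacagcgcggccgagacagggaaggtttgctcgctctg
Sema3a: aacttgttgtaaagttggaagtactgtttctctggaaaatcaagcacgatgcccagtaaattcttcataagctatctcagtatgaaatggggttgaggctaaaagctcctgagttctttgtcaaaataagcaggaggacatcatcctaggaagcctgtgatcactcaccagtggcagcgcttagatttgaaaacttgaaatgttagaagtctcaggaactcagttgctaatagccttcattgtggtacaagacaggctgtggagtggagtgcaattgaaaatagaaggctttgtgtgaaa
Slit3: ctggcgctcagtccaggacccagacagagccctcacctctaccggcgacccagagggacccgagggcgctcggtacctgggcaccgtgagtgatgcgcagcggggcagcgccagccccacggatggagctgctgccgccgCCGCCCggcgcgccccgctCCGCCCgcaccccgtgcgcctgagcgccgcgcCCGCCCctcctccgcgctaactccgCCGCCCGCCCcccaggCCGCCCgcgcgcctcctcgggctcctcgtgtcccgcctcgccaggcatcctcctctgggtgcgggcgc
Slit2: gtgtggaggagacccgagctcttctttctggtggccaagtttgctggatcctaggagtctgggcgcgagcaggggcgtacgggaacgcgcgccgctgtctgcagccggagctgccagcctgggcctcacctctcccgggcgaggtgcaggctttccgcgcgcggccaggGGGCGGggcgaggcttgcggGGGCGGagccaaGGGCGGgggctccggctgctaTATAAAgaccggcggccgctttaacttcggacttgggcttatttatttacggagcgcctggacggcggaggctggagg
The Sema3d window holds 1 CCAAT box, and the Sema3a window holds none of the 5 motifs. The Slit3 window holds 6 GC boxes and the Slit2 window 3, with 1 TATA box besides. Of all 32851 RefSeq windows of this length, 13.6% hold the TATA box, 37.4% the CCAAT box, 35.7% the GC box, 7.81% the AP-1 site and 14.7% the TEAD site. The number of CpG dinucleotides was 8 in the Sema3d window, 2 in Sema3a, 41 in Slit3 and 30 in Slit2. Within the Slit pair both windows are thus rich in G and C (78.3% and 68.0%), and within the semaphorin pair neither is (49.7% and 41.3%). These matches describe the letters of the windows only.

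The Slits divided as well. Slit2, a repellent of commissural and olfactory axons that also acts on vessels, read 9.49 untreated and 8.50 after ET-1 in the knockout, against 13.12 and 13.85 in wild type. The knockout was lower by 12.4-fold without ET-1 and by 40.8-fold with it, though the second value uses 1 knockout value below the level filter and the treated wild-type array noted above. By limma the difference was -4.49 ± 0.45 (SE, adjusted p = 0.0130). Slit3, its paralogue, known for its role in the diaphragm and kidney, read 11.43 and 11.50 in the knockout, against 10.60 and 10.64 in wild type. Its arrays within a genotype lay close together, and it was 1.78-fold and 1.81-fold higher in the knockout (limma 0.84 ± 0.13 SE, adjusted p = 0.0320, and 0.0514 for Slit3 without the level filter). Slit1 did not pass the level filter.

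Of the membrane-anchored semaphorins of classes 4 to 7, 3 of 11 tested rose, 1 fell and 7 were not called (background 6.60% and 7.05%). Sema4c, a ligand of plexin B2, read 11.85 and 11.86 in the knockout, against 9.68 and 9.56 in wild type. This was 4.52-fold and 4.93-fold higher, with hardly any difference between the arrays of a genotype (limma 2.24 ± 0.12 SE, adjusted p = 0.00586). Sema6d, a ligand of plexin A1 in cardiac morphogenesis, read 12.04 and 12.08 in the knockout, against 10.10 and 9.57 in wild type. It was 3.81-fold and 5.69-fold higher in the knockout by the brightest probe set (limma 2.22 ± 0.19 SE, adjusted p = 0.00970). The next probe set of Sema6d, also above the level filter, differed by -0.06 untreated and 0.03 after ET-1, so the probe sets of this gene disagree. Sema4a, known from immune cells and retina, read 10.21 and 10.26 in the knockout, against 9.28 and 8.56 in wild type. Its difference by limma was 1.32 ± 0.21 (SE, adjusted p = 0.0340), and its second probe set differed by 3.41 untreated and 4.39 after ET-1 but carries the same suffix as the brightest Sema3f set. The Sema4a call was lost without the level filter (limma adjusted p = 0.0542) and in eBayes without trend (adjusted p = 0.0529).

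Sema5a, a semaphorin with thrombospondin repeats that binds plexin B3, went the other way. It read 6.61 and 6.64 in the knockout, both far below the level filter, against 10.23 and 10.61 in wild type. By the brightest probe set it was lower by 12.3-fold without ET-1 and by 15.7-fold with it (limma -3.79 ± 0.13 SE, adjusted p = 0.00556), and since the knockout is dim these folds are uncertain. The second probe set differed by -2.68 and -2.34, the same direction. The not-called semaphorins of these classes (Sema4b, Sema4d, Sema4f, Sema4g, Sema6a, Sema6c and the GPI-anchored Sema7a) had differences from -0.27 to 0.25.

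Among the semaphorin receptors 1 of the 2 neuropilins fell and the other was not called (background 7.05% lower). Nrp1, the neuropilin that binds Sema3a and also VEGF-A, read 11.71 untreated and 11.27 after ET-1 in the knockout, against 13.37 and 13.56 in wild type. It was 3.16-fold and 4.91-fold lower (limma -1.98 ± 0.23 SE, adjusted p = 0.0160), and its 3 other probe sets were all above the level filter and at least 2-fold lower in both treatment states. Nrp2, which prefers Sema3f, read 11.35 and 11.55 in the knockout, against 11.51 and 11.25 in wild type, and was not called (limma 0.07 ± 0.19 SE, adjusted p = 0.857). Sema3a and Nrp1, a ligand and its receptor, were thus both lower.

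Of 8 plexins tested 2 rose and 6 were not called (background 6.60% higher and 7.05% lower). Plxnb3, the receptor of Sema5a, read 9.92 and 9.35 in the knockout, against 8.59 and 8.36 in wild type (limma 1.16 ± 0.13 SE, adjusted p = 0.0146). Plxna4, a neuropilin partner in Sema3a signalling, read 10.10 and 10.21 in the knockout, against 9.40 and 9.30 in wild type (limma 0.80 ± 0.10 SE, adjusted p = 0.0209). Both wild-type values of Plxnb3 lay below the level filter. Its brightest probe set differed by 1.34 untreated and 0.99 after ET-1. The second Plxnb3 probe set, above the level filter by its untreated knockout value of 9.10, differed by only 0.61 and 0.10. The ligand Sema3a was lower and its receptor component Plxna4 higher. Plxnb2, the plexin that binds Sema4c, read 13.12 and 13.22 in the knockout, against 13.01 and 13.10 in wild type, a limma difference of 0.12 ± 0.14 (SE, adjusted p = 0.655). Plxnd1, the Sema3e receptor of vessels, had a difference of -0.49 ± 0.10 (SE) that did not pass (limma adjusted p = 0.0567). The other plexins tested, Plxna1, Plxna2, Plxna3 and Plxnb1, differed by -0.34 to 0.32 by their brightest probe sets. The second probe set of Plxnb1, also above the level filter, was 2.03 higher in the knockout untreated and 2.38 higher after ET-1, and with its probe sets averaged Plxnb1 was called (1.26 ± 0.11 SE, limma adjusted p = 0.00708).

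**Figure D2:**
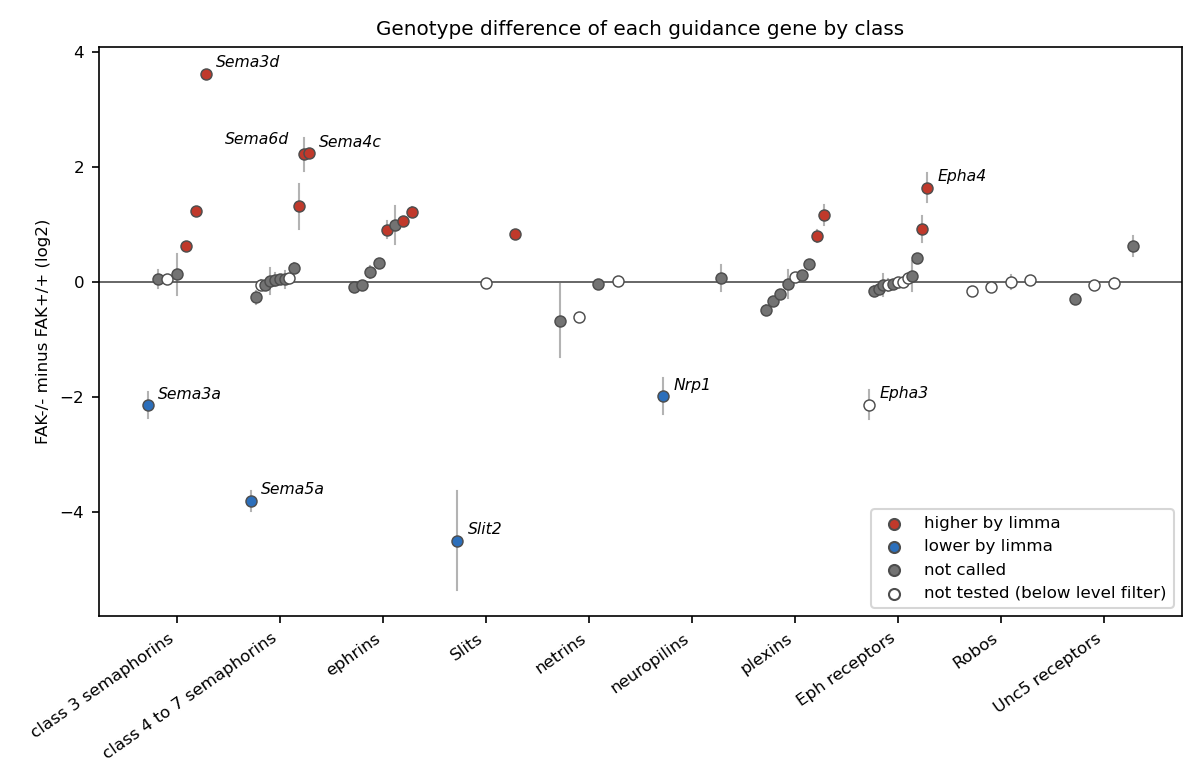
Genotype difference (FAK-/- minus FAK+/+, log2) of the 67 protein-coding guidance genes by class; a point is the mean of the untreated and the ET-1 difference, the line joins both, and colour gives the limma call. The 4 genes called lower lie among the Slits, semaphorins and neuropilins. They are 8.16% of the 49 tested, which is near the background of 7.05% of all genes. No ephrin, plexin, Eph receptor, netrin or Unc5 receptor tested was called lower, and no Robo passed the level filter. With so few genes per class, no difference between classes can be read from this. Without the level filter Epha3 and Ntn1 were called lower.

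Of 8 ephrins tested 3 rose, 0 fell and 5 were not called (background 6.60% higher and 7.05% lower). With so few genes, 0 called lower is near that background. At an unadjusted p under 0.05 by limma 5 of the 8 were higher (background 29.9% in either direction). Efna5, a GPI-anchored ligand of several EphA receptors, read 12.20 untreated and 12.23 after ET-1 in the knockout, against 10.90 and 11.09 in wild type (limma 1.22 ± 0.16 SE, adjusted p = 0.0214). Efna2, another GPI-anchored ephrin, read 10.00 and 10.08 in the knockout, against 8.96 and 9.00 in wild type (limma 1.06 ± 0.09 SE, adjusted p = 0.00946). In both genes the other probe set, below the level filter, had a smaller difference of the same sign. Efnb1, a transmembrane ephrin mutated in craniofrontonasal syndrome, read 11.52 in both knockout arrays, against 10.76 and 10.45 in wild type (limma 0.91 ± 0.16 SE, adjusted p = 0.0372, and 0.0590 for Efnb1 without the level filter). Its other probe sets differed by 1.04 and 2.31 untreated and by 1.22 and 2.79 after ET-1, all more than the brightest. Efnb2, the arterial ephrin, read 12.31 and 12.94 in the knockout, against 11.65 and 11.62 in wild type. The knockout arrays were both higher and differed from each other, and the gene did not pass (limma 0.99 ± 0.23 SE, adjusted p = 0.0757). Efna1, Efna3, Efna4 and Efnb3 differed by 0.33, -0.05, 0.18 and -0.09 and were not called.

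Of 8 Eph receptors tested 2 rose, 0 fell and 6 were not called (background 6.60% higher and 7.05% lower). Epha4, which binds ephrins of both types, read 10.84 and 10.85 in the knockout, against 8.94 and 9.47 in wild type. It was 3.73-fold higher untreated and 2.61-fold higher after ET-1 (limma 1.64 ± 0.16 SE, adjusted p = 0.0121), and the other 3 probe sets above the level filter had the same sign, at 0.70, 1.63 and 2.16 untreated and 0.30, 0.66 and 0.59 after ET-1. Ephb6, a receptor that lacks kinase activity, read 9.26 and 9.29 in the knockout, against 8.56 and 8.14 in wild type (limma 0.93 ± 0.15 SE, adjusted p = 0.0322, and 0.0516 for Ephb6 in eBayes without trend). Ephb3 read 12.74 in both knockout arrays, against 12.36 and 12.28 in wild type, and was not called (limma 0.42 ± 0.16 SE, adjusted p = 0.186). Epha2 and Ephb4, the venous partner of ephrin B2, were not called either, at 0.11 and -0.16, nor were Epha1, Epha5 and Epha10, at -0.06, -0.12 and -0.03. Epha3 is an EphA receptor that binds ephrin A5. It read 5.80 and 5.48 in the knockout, against 7.67 and 7.86 in wild type, so all 4 values lay below the level filter and it was not tested with the others. Without the level filter it was called lower by limma (-2.13 ± 0.14 SE, adjusted p = 0.0129).

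No Slit receptor and only some netrin genes could be tested. All 4 Robos, the Slit receptors, failed the level filter, with values of 5.87 to 8.62 and genotype differences of -0.15 to 0.13. Of 4 netrins 2 were tested and neither was called. Ntn4, a laminin-related netrin of basement membranes, read 8.86 untreated and 8.29 after ET-1 in the knockout, against 8.89 and 9.59 in wild type (limma -0.67 ± 0.33 SE, adjusted p = 0.279), and Ntn5 differed by -0.03. Ntn1, the founding member of the family in vertebrates, failed the level filter, with 7.97 and 7.88 in the knockout, against 8.51 and 8.55 in wild type. Without that filter it was called lower (limma -0.60 ± 0.07 SE, adjusted p = 0.0256). Of the Unc5 receptors Unc5b read 13.04 and 13.17 in the knockout, against 12.59 and 12.38 in wild type, and was not called (limma 0.62 ± 0.18 SE, adjusted p = 0.107). Unc5c differed by -0.30 ± 0.10 (SE, adjusted p = 0.149 by limma).

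Ligands and receptors compared as follows. Of 29 ligands tested 10 rose (34.5%) and 3 fell (10.3%), and of 20 receptors 4 rose (20%) and 1 fell (5%). The difference between the ligand and receptor shares was not tested. The background was 6.60% higher and 7.05% lower, so the shares that fell lie near it. Sema3d and Sema5a among the ligand calls, and Plxnb3 and Ephb6 among the receptor calls, passed the level filter through 1 genotype alone. Both knockout arrays lay above both wild-type arrays in 23 of the 49 genes (46.9%, background 30.0%) and below both in 12 (24.5%, background 29.3%). Just inside the level filter lay Sema4g, Epha1 and Epha5, with highest values of 8.97, 9.01 and 9.11, and just outside Unc5a, Sema5b and Ephb1, with 8.83, 8.80 and 8.71, and none of these 6 differed by more than 0.25 in either state.

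Several probe sets represent 15 of the 18 called genes, and they bear on how far a single probe set can be read. Of their 28 other probe sets 24 had the same sign as the brightest in both treatment states. Of the 17 above the level filter 16 did, the exception being the Sema6d probe set named above, and 10 of the 17 were at least 2-fold different in both states. These 10 belong to 7 genes, among them Nrp1, Sema3a, Sema5a and Slit2, the 4 that fell.

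**Figure D3:**
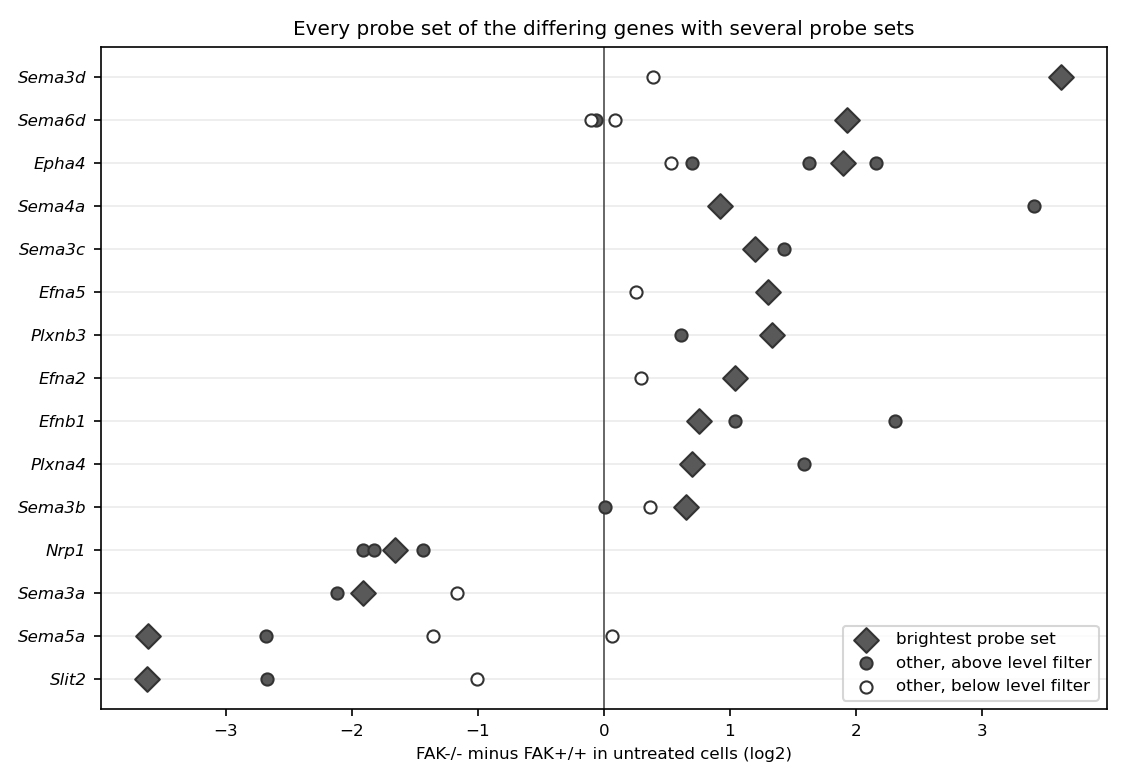
Difference between FAK-/- and FAK+/+ untreated cells (log2) for every probe set of the 15 called genes that have several; diamonds are the brightest, filled circles other probe sets above the level filter and open circles those below it. The 4 probe sets of Nrp1 lie together near -1.7, whereas those of Sema6d spread between -0.10 and 1.93.

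Genes that work with these receptors were taken as 2 further lists. Of 20 tested co-receptors and further ligands 0 rose and 2 fell by limma (background 6.60% and 7.05%). These were Neo1, which encodes the netrin and RGM receptor neogenin (12.83 and 12.97 in the knockout, against 13.62 and 14.02 in wild type, -0.92 ± 0.15 SE, adjusted p = 0.0319), and the heparan sulphate proteoglycan Gpc1 (-1.40 ± 0.15 SE). Dcc, the other netrin receptor, differed by -0.09. Of 47 tested cytoplasmic effectors 8 rose and 5 fell, against the same background. Of these 13 calls 4 are of genes that passed the filter through 1 genotype alone, Chn2 and Farp2 among them. Dpysl3, a collapsin response mediator, fell most. It read 10.12 and 8.22 in the knockout, against 13.71 and 13.98 in wild type (limma -4.68 ± 0.57 SE, adjusted p = 0.0179). Also lower were the kinase Pak3 (-1.60), the plexin-associated exchange factor Farp2 (-1.52) and Rasa1, a Ras GTPase-activating protein that binds Eph receptors (-1.27). The largest differences upward were those of Chn2 (2.15), a GTPase-activating protein that turns Rac off, and of the plexin-binding GTPase Rnd1 (1.56). Next came the adaptor Nck2 (1.36) and the Rac exchange factor Tiam1 (1.34). The median of the effector list was -0.02 untreated and -0.01 with ET-1 over its 50 measured genes, and that of the first list -0.03 and -0.12 over 23.

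After ET-1 no guidance gene reached 2-fold in either genotype. The count was 0 higher and 0 lower of 49 in the knockout, against a background of 0.236% and 0.277%, and 0 and 0 in wild type, against 0.781% and 1.17%. By limma 0 of 49 were called after ET-1 and 2 had an unadjusted p under 0.05 (background 0.00% and 5.23%), and these were Sema3d (0.34 ± 0.11 SE) and Plxnb3 (-0.40 ± 0.13 SE), both with an adjusted p of 0.780. Of the 49 genes 45 moved by less than 0.5 on the log2 scale in the knockout and 42 in wild type. At 1.5-fold, 1 gene was higher and 1 lower in the knockout (background 1.39% and 0.936%), and 2 were higher and 3 lower in wild type (background 6.51% and 4.22%). With 1 array per group these counts do not show that the genes are unaffected by ET-1.

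The genes at 1.5-fold were few enough to name. Efnb2 was 0.63 higher after ET-1 in the knockout, and its second probe set gave 0.55, against -0.04 and -0.16 in wild type. The third Efnb2 probe set, above the level filter, gave -0.10 in the knockout and -0.09 in wild type. The fourth, below it, gave 0.12 and -0.35. Slit2 differed by -0.99 after ET-1 in the knockout and by 0.73 in wild type, but its second probe set gave 0.30 and -0.89, the opposite signs. The third Slit2 probe set, below the level filter in every array, gave -0.17 and 0.43, the same signs as the brightest. Ntn4 differed by -0.57 in the knockout and 0.70 in wild type, with 3 of its 4 values below the level filter. In wild type Sema3f and Sema4a differed by -0.72 each and Epha2 by -0.60, whereas in the knockout they differed by 0.00, 0.06 and -0.07. The other Sema3f probe sets, above the level filter, gave only -0.12 and -0.27 in wild type. The second Sema4a probe set gave -0.37 in wild type and 0.61 in the knockout. Each wild-type value rests on the treated wild-type array with the Gapdh gap of 3.79, and the part of RNA quality was not tested.

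**Figure D4:**
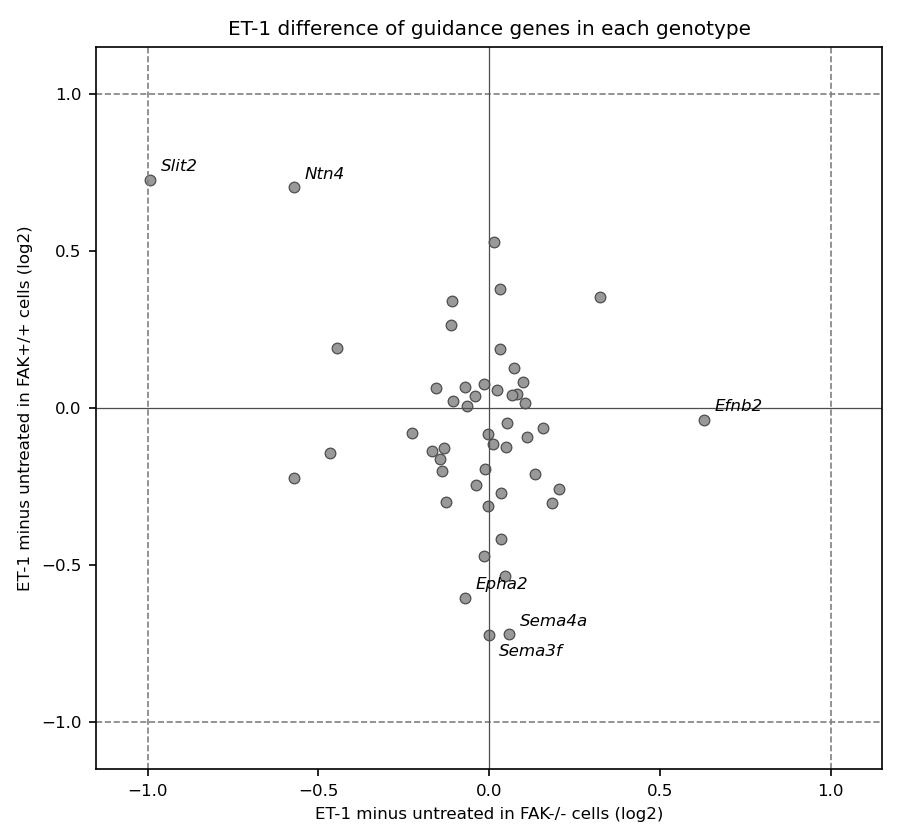
ET-1 minus untreated difference (log2) of the 49 tested guidance genes in FAK-/- cells (x axis) and FAK+/+ cells (y axis), 1 array per group; dashed lines mark 2-fold. No point lies beyond them, and the genes named are those at 1.5-fold or more, with Slit2 (-0.99 and 0.73) nearest to the line.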

How the data were processed

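Total RNA (100 ng per sample, amplified in 2 cycles and biotin-labelled, per the labels' protocols) was hybridised to 1 array per group. The values are log2 RMA summaries of each probe set as deposited by the authors. RMA is named in the submitters' processing notes without a version. The log base was taken from the range of the values, 5.00 to 15.24. Array medians lay between 8.89 and 8.92. A floor near 5 is high for RMA, and whether differences of dim genes are compressed was not tested.

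Probe sets were named through the platform annotation, which paired 34958 of 45101 with 1 gene. The 68 guidance genes had 149 probe sets, 0 of them shared with another gene. The brightest probe set, by the mean of the 4 arrays, stood for a gene, and genes with no value above the median of all values were left out of the test. limma 3.58.1 in R 4.3.3 (lmFit, eBayes with an intensity trend, prior degrees of freedom 2.996) was fitted to all 12290 genes with Benjamini-Hochberg adjustment at 0.05, after a test on simulated data. Counts at 2-fold carry no test. Alternatives were the mean of all probe sets, no or a stricter filter (log2 10), array medians subtracted, a floor at the 25th percentile (log2 7.68), eBayes without trend, a model of genotype alone and a threshold of 1.5-fold. Promoter windows were RefSeq's, found for 58 of the 68 members. Precision is limited by the number of arrays. Genes named with their levels are those called, those at 2-fold in both states or after ET-1, and the brightest of each class, and others named were chosen after their values were seen. The members, gene lists and markers were chosen with earlier results of these data known. The gene that encodes FAK was not analysed here, so the genotype labels were not checked against it. Python 3.11.15, numpy 2.4.6, pandas 2.3.3 and matplotlib 3.10.9 were used.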

Additional observations from a re-analysis of the deposited data

Results flagged for a closer look

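Both genes were singled out because their ET-1 differences had opposite signs in the 2 genotypes and a size of at least 0.5 on the log2 scale in each, among 49 genes examined. The difference between genotypes was not tested, since each ET-1 difference comes from 1 array per group. For Slit2 the ET-1 difference was -0.99 in the knockout and 0.73 in wild type, so the knockout value minus the wild-type value was -1.72. For Ntn4 it was -0.57 in the knockout and 0.70 in wild type, which gave -1.27. The second Slit2 probe set gave the opposite signs, 0.30 in the knockout and -0.89 in wild type, and the third, which is dim, the same signs as the brightest, -0.17 and 0.43. The second Ntn4 probe set, also dim, gave -0.18 and -0.19.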

How the results depend on the processing

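No pairing of replicates could be fitted because each group has 1 array, though the additive model compares genotypes within each treatment. Between genotypes the number of guidance genes called higher was 11 to 15 and lower 4 to 6 over all 7 alternatives, against 14 and 4 of 49 as reported. The number tested differed: without a filter 11 and 6 of 68 (all genes 3.95% and 4.28%), with probe sets averaged 15 and 5 of 40 (8.95% and 8.49%), with the stricter filter 12 and 4 of 28 (10.3% and 10.3%). With array medians subtracted it was 15 and 5 of 49 (9.59% and 9.21%). Of the 18 genes, 12 were called under every alternative (8 higher and 4 lower): Efna2, Efna5, Epha4, Nrp1, Plxna4, Sema3a, Sema3c, Sema3d, Sema4c, Sema5a, Sema6d and Slit2. Sema3b was lost with the mean of all probe sets. Efnb1, Sema4a and Slit3 were lost without the level filter, and Ephb6, Sema3b and Sema4a in eBayes without trend. The stricter filter removed Ephb6, Plxnb3 and Sema3b. Genes called under an alternative only were Plxnb1, Plxnd1 and Sema3f (mean of all probe sets), Epha3 and Ntn1 (no filter), Efnb2 (stricter filter), Efnb2 and Plxnd1 (array medians subtracted) and Plxnd1 (genotype alone). The cause was not tested. With the threshold at 1.5-fold, 15 genes were higher in the knockout in both states (background 7.32%), against 7 at 2-fold, among those tested, and 4 were lower at both thresholds. After ET-1 the counts at 1.5-fold were 1 higher and 1 lower in the knockout and 2 and 3 in wild type, against 0 in each at 2-fold. With array medians subtracted 1 gene, Slit2, was 2-fold lower after ET-1 in the knockout. Without the ET-1-treated wild-type array, a choice made after seeing the data, no residual degree of freedom remains for limma. The 18 called genes kept their sign in the untreated pair. That pair is part of the fit that called them, so the kept sign is no separate support.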
